A study of Papio anubis with 40 samples.

Results

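The fragments described here were found in the serum of olive baboons (Papio anubis). They are pieces of the 3' side of the aspartate tRNA with anticodon GTC (Asp-GTC) that lack 1 or more bases at the 3' end. They were chosen as every fragment of 18 to 36 nt whose sequence lies inside that of tRF-42-S5QKF1R3WE8RO86J2 or tRF-41-8HM2OSRNLNKSEK51B without a gap, with at most 1 mismatch, and without covering the last base. The second of these reads is the first without its first base, so that it adds no member to those of the first. In all, 3047 of the 58587 fragments in the table were such members, with 226615 of 130892201 counts (0.173%). Serum was drawn from 8 animals at months 3, 6, 9 and 15 after endometriosis was induced by inoculating menstrual tissue into the abdomen, and at month 0, before that procedure, which gave 40 libraries with 8 per month. Every library came from 0.5 mL of serum, all are labelled as untreated, and the labels give no age. The labels also call the month 0 animals endometriotic, although the study's design text puts that draw before inoculation. There was no animal without inoculation, so a month cannot be told apart from age or from anything else that changed between the draws. The members were proposed with the difference between month 15 and month 0 known, so that this comparison is given as a description.

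A tRNA carries its amino acid on a CCA triplet that an enzyme adds to the 3' end after transcription. Just before the CCA stands an unpaired base, the discriminator, and before that the 3' strand of the acceptor stem. Ribonucleases such as angiogenin can cut a tRNA in its anticodon loop, which leaves a 5' and a 3' piece, and such pieces circulate in blood. The last base of the anticodon loop of Asp-GTC is a cytosine that the methyltransferase DNMT2 is known to methylate in mice and flies. Base modifications were not measured here.

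Sequences are given first for the defining read, because its parts locate every member, with the anticodon and the CCA in capitals and then with the 5 bases in capitals that the most abundant members lack.
tRF-42-S5QKF1R3WE8RO86J2: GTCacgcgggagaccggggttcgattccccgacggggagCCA
The same read: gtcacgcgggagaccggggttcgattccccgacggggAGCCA
The read begins with the anticodon, at positions 1 to 3 counted from its 5' end, and goes on through the remaining anticodon loop (4 to 5), the 3' strand of the anticodon stem (6 to 10), the variable region (11 to 14), the T stem and loop (15 to 31), the acceptor strand (32 to 38), the discriminator base (39) and CCA (40 to 42). As a check of the label, longer rows that end like it were searched, and 105 were found. The longest had 75 nt, and in it the 5 anticodon stem pairs and the 5 T stem pairs all matched. RefSeq lists 10 genes of this tRNA in its baboon assembly Panubis1.0, each of 72 bases, which is the length of that row without CCA. None of the members was an exact part of the 5259 rows of 37 nt or more that belong to other sequences, and none fitted the read in more than 1 place.

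The 10 most abundant members, and the most abundant ones missing 1 and 3 bases, are shown with their last 4 bases in capitals, so that the ends can be compared.
tRF-35-M2OSRNLNKSEK51: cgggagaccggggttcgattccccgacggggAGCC
tRF-35-QKF1R3WE8RO86J: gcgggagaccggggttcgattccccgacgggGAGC
tRF-34-QKF1R3WE8RO8IS: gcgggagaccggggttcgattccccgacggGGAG
tRF-35-EH623K7SIR3DR2: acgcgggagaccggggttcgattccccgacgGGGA
tRF-33-QKF1R3WE8RO8DX: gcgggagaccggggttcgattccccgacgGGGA
tRF-33-L85DMKYUYRLHDY: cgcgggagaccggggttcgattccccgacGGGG
tRF-34-EH623K7SIR3DIY: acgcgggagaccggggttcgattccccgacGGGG
tRF-32-QKF1R3WE8RO84: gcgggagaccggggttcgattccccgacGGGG
tRF-31-M2OSRNLNKSEK0: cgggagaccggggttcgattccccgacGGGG
tRF-32-L85DMKYUYRLH4: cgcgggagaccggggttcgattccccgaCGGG
tRF-30-M2OSRNLNKSEK: cgggagaccggggttcgattccccgaCGGG
tRF-33-EH623K7SIR3DDY: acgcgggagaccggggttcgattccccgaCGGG
The first lacks 1 base, the second 2, the third 3, the next pair 4, the following 4 fragments 5, and the last 3 fragments 6. They differ at the 5' end by at most 3 bases, at positions 4 to 7 of the defining read.

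Members were concentrated on few sequences. The 10 most abundant held 57.4% of member counts, while 2397 had a total below 10 counts and 1102 a total of 1. The 210 members without a mismatch, of 285 that the rule allows, held 82.1% of member counts, and the 2837 with 1 mismatch held the other 40538 counts. A mismatch at a fragment's own last base, where the number of bases missing is least certain, was found in 129 members with 0.290% of member counts. At the limits of the length rule stood 61 members of 18 nt (507 counts) beside 64 like fragments of 17 nt (503 counts), and 211 members of 36 nt (10658 counts) beside 163 like fragments of 37 nt (7488 counts). Lengths of 33 nt (27.5% of counts), 34 nt (21.8%) and 32 nt (17.2%) were the most frequent.

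The commonest 3' end lay within the acceptor strand. Members missing 5 bases, which end in a run of 4 guanines and lack the last base of the acceptor strand, the discriminator and CCA, made up 49.0% of member counts pooled over libraries. Those missing 6 made up 14.1%, those missing 4 (ending on the last base of the acceptor strand) 11.5%, those missing 3 (ending on the discriminator) 10.0%, those missing 2 (ending in the first C of CCA) 10.1%, and those missing 1 (lacking just the final A) 2.67%. The library medians were 41.4% for 5 bases missing, 12.1% for 4, 11.9% for 3, 10.9% for both 2 and 6, and 2.13% for 1. In sum, 76.8% of counts ended in the acceptor strand, 10.0% on the discriminator and 12.8% inside CCA. At the other side, 57.9% of counts began in the anticodon loop after the anticodon and 34.7% in the anticodon stem. The first base was position 5, the last base of the loop, for 32.6% of counts, position 4 for 25.3%, position 6 for 19.9% and position 7 for 12.2%. Starts inside the anticodon itself held 0.642%. The pair of a start at 5 with 5 bases missing was the most abundant, with 20.1% of counts, followed by a start at 4 (15.2%) and at 6 (8.76%) with the same end.

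**Figure D1:**
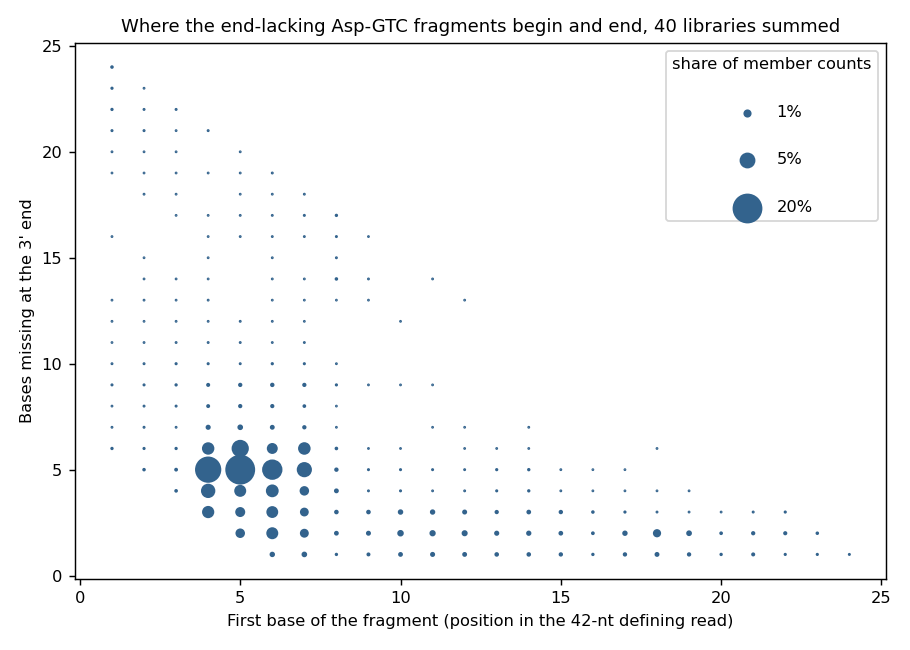
First base of the member in the 42-nt defining read (x axis) against the number of bases missing at the 3' end (y axis); the area of a point is the share of member counts over the 40 libraries. The largest points lie at starts 4 to 6 with 5 bases missing, which hold 15.2%, 20.1% and 8.76% of counts.

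Library totals ranged from 198840 to 6245450 counts and member counts from 443 to 17647 per library, both lowest in PA8001 at month 0. Levels are given as CPM, counts scaled to equal library totals with TMM factors that adjust for composition. The floor of 3 counts that remains possible where a library shows 0 was 0.568 to 7.82 CPM. The month 15 library of PA8001 had the highest share of members, 0.806% of its counts (95% Wilson interval 0.794 to 0.819%), and that of PA8003 the lowest scaling factor, 0.458. Month 15 values are therefore also given without one or both of them. Such intervals and floors cover counting error only. In serum, the tissue a fragment came from, its release and its clearance cannot be told apart.

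The distribution over 3' ends differed from library to library. The share of member counts missing 5 bases ran from 5.07% to 74.6%, that missing 6 from 3.01% to 54.6%, and that missing 2 from 1.92% to 32.03%. Members missing 5 bases were the most abundant class in 6 of 8 libraries at month 0, 7 at month 3, 7 at month 6, 8 at month 9 and 4 at month 15. In PA8914 they held 68.4%, 74.6%, 59.6% and 71.3% of member counts at months 0, 3, 6 and 9, and 26.6% at month 15. In PA8835 the same share was 35.9%, 37.0%, 37.8%, 27.1% and 38.5% at the 5 draws. PA8872 had 54.6% of its members missing 6 bases at month 0 and between 3.49% and 13.8% at the later draws.

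**Figure D2:**
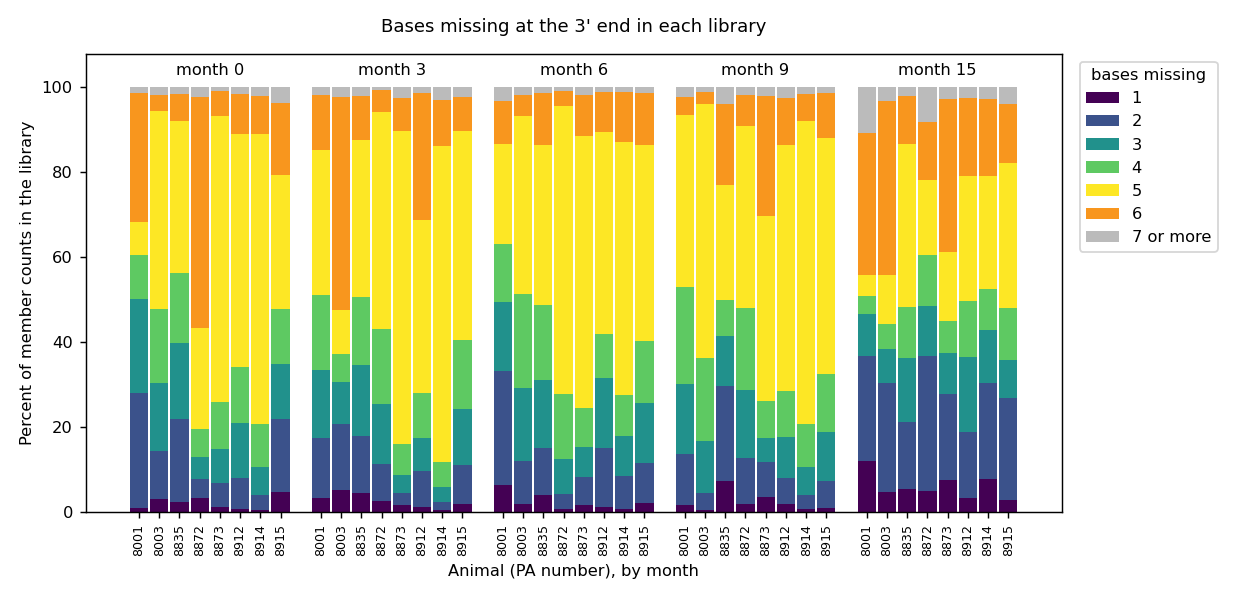
Percent of member counts (y axis) by number of bases missing at the 3' end (colours) in each of the 40 libraries, grouped by month. Members missing 5 bases (yellow) average 42.1%, 46.3%, 48.5% and 49.8% at months 0, 3, 6 and 9, and 22.4% at month 15.

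At months 3, 6 and 9 no member passed the test against month 0. Of the 3047 members, 65 passed the filter on low counts, and these held 85.7% of member counts. edgeR's quasi-likelihood test called 0 of the 65 at each of these months, against 0% of all 2447 fragments tested, and limma-voom and DESeq2 called 0 as well. With an unadjusted p under 0.05 there were 0 members at month 3, 1 at month 6 and 0 at month 9, against 2.98%, 12.7% and 8.21% of all fragments. The single one, tRF-34-EH62EK7SIR3DIY (substitution C14A, missing 5 bases; named after its value was seen), had 6.45 ± 5.62 CPM at month 6, against 2.46 ± 2.64 CPM at month 0 (SD, n = 8 each), with an adjusted p of 0.370 by edgeR. The median log2 change of the 65 members was 0.17 at month 3, 0.09 at month 6 and 0.12 at month 9, beside 0.10, 0.01 and 0.06 for all fragments tested. For the 13 tested members missing 5 bases it was 0.36, 0.55 and 0.86 at these months, with 12, 12 and 13 of them higher than at month 0. That is 1 class of several, and the others are not given here for these months. Its members share their sequence and their libraries and none was called, so nothing is read from those counts. The 3 later months share the month 0 libraries.

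Summed over all 3047 members, the share of the library averaged 0.159% ± 0.0660 at month 3, 0.170% ± 0.105 at month 6 and 0.165% ± 0.0407 at month 9, against 0.162% ± 0.0653 at month 0 (SD, n = 8 each). The mean length weighted by counts was 32.6 ± 0.587, 32.6 ± 0.742 and 32.6 ± 0.671 nt at these later months, against 32.5 ± 0.53 nt at month 0. On average 4.57 ± 0.345 bases were missing at month 3, 4.35 ± 0.305 at month 6 and 4.48 ± 0.260 at month 9, against 4.47 ± 0.445 at month 0. None of 12 exact sign-flip tests, two-sided and paired by animal (these 3 measures and the ratio to end-covering fragments, 3 months each) passed. The smallest exact p was 0.109, all adjusted p were 0.977, and the smallest p that 8 animals allow is 0.00781.

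The month 15 libraries held a different mix of ends. Members missing 2 bases averaged 22.6% ± 5.47 of member counts at month 15 (lowest 15.5, median 23.4, highest 32.03), against 12.01% ± 8.51 at month 0 (3.48, 9.28 and 27.1), and were higher in 6 of 8 animals. Those missing 1 base averaged 5.98% ± 2.95 at month 15, against 2.05% ± 1.497 at month 0, higher in 7 of 8. Those missing 5 bases averaged 22.4% ± 11.6 at month 15 (5.07, 22.1 and 38.5), against 42.1% ± 21.3 at month 0 (7.90, 41.3 and 68.4), and were lower in 6 of 8. The ranges overlap in all 3 cases. Those missing 6 bases averaged 23.2% ± 11.7 at month 15 and 17.02% ± 17.4 at month 0, higher in 6 of 8. Those missing 4 bases averaged 9.64% ± 3.37 at month 15 and 12.3% ± 3.52 at month 0, lower in 7 of 8, and those missing 7 or more averaged 4.51% ± 3.18 at month 15 and 1.84% ± 0.824 at month 0, higher in 8 of 8. Members missing 3 bases had 11.7% ± 3.36 at month 15 and 12.7% ± 5.91 at month 0, higher in 4 of 8. Without the PA8001 library the month 15 means were 5.14%, 22.3%, 11.9%, 10.4%, 24.9% and 21.7% for 1 to 6 bases missing. For 7 or more bases missing the mean was 3.61% without it. The length rule leaves out fragments of 37 nt or more, which touches the classes missing few bases most. Over all matched lengths above the lower limit of the rule, members missing 1 base averaged 9.68% at month 15 and 3.72% at month 0. Below that limit lies tRF-16-YRLHR0D, of 16 nt and missing 2 bases, with 6374 counts. This fragment had a median of 26.8 CPM of the library total at month 15, against 30.2 at month 0. It was higher in 4 of the 7 animals with counts at both draws. Shares missing 2 bases with such short fragments included were not tested.

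As levels, members missing 2 bases stood at a median of 273.9 CPM of the library total (without TMM factors) at month 15 (lowest 109.1, highest 2004), against 118.2 at month 0 (63.2 and 603.5), and were higher in 8 of 8 animals. These levels do not include tRF-16-YRLHR0D, which is too short for the length rule. Members missing 5 bases had a median of 355 at month 15 (102.1 and 571.9), against 541.9 at month 0 (176.02 and 1466), and were higher in 3 of 8. The summed share of all members in the library averaged 0.223% ± 0.243 at month 15 and 0.162% ± 0.0653 at month 0, and was higher in 4 of 8 animals. The paired log2 difference of that share was 0.10 ± 0.87 (SD, n = 8), and -0.15 ± 0.55 without PA8001 (n = 7). The mean length was 31.5 ± 0.564 nt at month 15, against 32.5 ± 0.53 nt at month 0, and shorter in 8 of 8 animals.

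**Figure D3:**
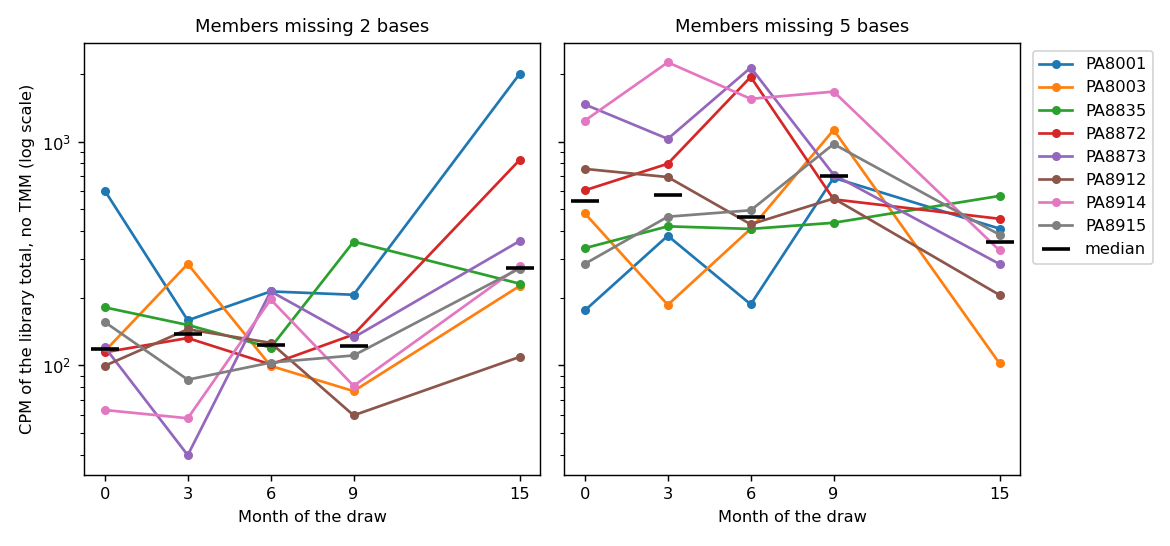
Level in CPM of the library total, without TMM factors (log scale), of members missing 2 bases (left) and 5 bases (right) by month of the draw; each line is an animal and black bars are medians. For 2 bases missing the median is 273.9 at month 15, against 118.2 at month 0, and for 5 bases missing it is 355 at month 15, against 541.9 at month 0.

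In the fit across all fragments, 13 of the 65 tested members were called higher at month 15 than at month 0 and 0 lower, beside 2.21% and 0.163% of all fragments tested (2.37% in either direction). Because this contrast stood behind the choice of the members, nothing is read from that count. All 13 lacked 1 base (4 members) or 2 bases (9 members) and had no mismatch. No member was called without the month 15 library of PA8001, and 1 was called without the month 0 library of PA8001. Leaving out all libraries of PA8003, PA8873 or PA8914 also gave 0 calls, of PA8001 1, of PA8912 2 and of PA8872 7. The median log2 change of tested members was 1.68 for 1 base missing (10 members), 1.63 for 2 (16), 1.14 for 3 (11), -0.58 for 4 (6), -0.71 for 5 (13) and 1.025 for 6 (8), beside 0.05 for all fragments tested. With a minimum count of 30, which left 4 members missing 3 bases, their median was -0.0201. Without the month 15 library of PA8001 these medians were 1.28, 1.36, 0.66, -0.65, -1.13 and 0.06. Without that library and the month 15 library of PA8003 they were 1.17, 1.24, 0.72, -0.52, -0.99 and -0.29, so that the class missing 6 bases had 3 of 8 members higher in place of 8 of 8.

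Changes at month 15 are also given by both edges of the fragment. Among tested members without a mismatch, the 6 that lack 4 or 5 bases and start at positions 4 to 6 were all lower (log2 -1.37 to -0.13). The 4 with the same ends that start at position 7 or 8 were higher (log2 0.12 to 1.018), but 3 of 4 were without the month 15 library of PA8001, where tRF-31-M2OSRNLNKSEK0 stood at -0.21. All 26 that lack 1 or 2 bases were higher (0.85 to 2.87). A fragment could pass the filter on low counts through its month 15 libraries alone, which favours higher values there. With a minimum count of 30, 8 of the 26 were tested, and with only months 0 and 15 in the fit 16, all higher. Both settings keep a filter that month 15 libraries alone can pass, so they do not remove this tilt. The 4 that lack 6 bases were also higher (0.54 to 1.52). Of these, 2 were higher and 2 lower without the month 15 library of PA8001 (-0.53 to 0.74). Of the 11 that lack 3 bases, 9 were higher and 2 lower (-0.97 to 1.78). These groups of fragments share their sequence and their libraries, and no test was made between them.

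**Figure D4:**
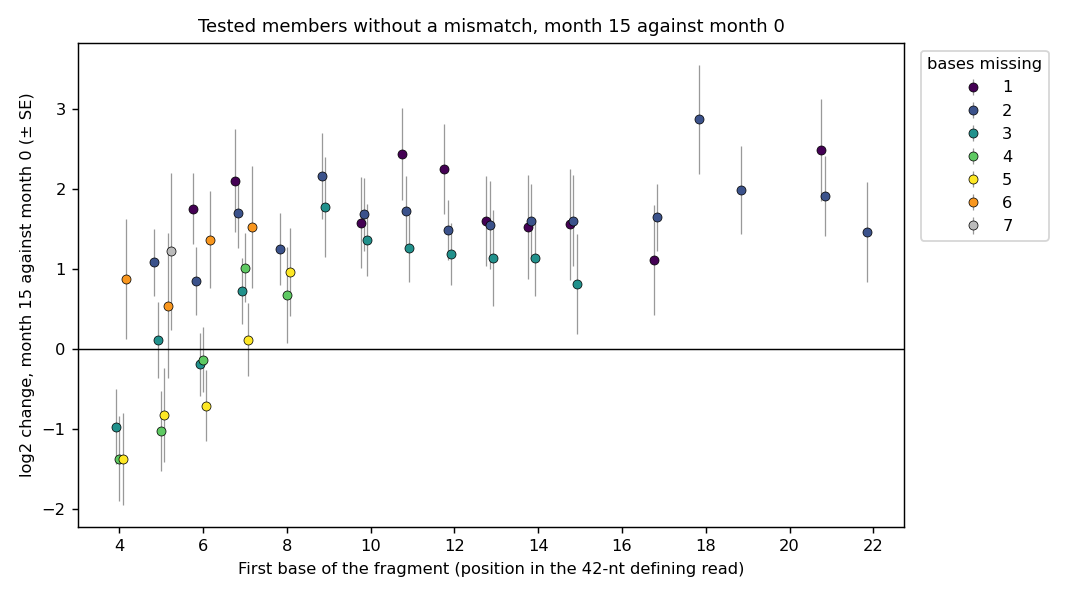
Fitted log2 change at month 15 against month 0, with its SE, for tested members without a mismatch, by first base in the defining read (x axis) and bases missing (colours; points are shifted sideways for legibility). Starts at 4 to 6 with 4 or 5 bases missing lie between -1.37 and -0.13, and all points with 1 or 2 bases missing lie between 0.85 and 2.87.

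The most abundant member over the 40 libraries, tRF-33-L85DMKYUYRLHDY, begins at the last base of the anticodon loop and lacks 5 bases. It stood at 69.1 ± 28.2 CPM at month 15 (lowest 35.2, median 61.5, highest 110.9), against 236 ± 266 CPM at month 0 (10.4, 122 and 683; SD, n = 8 each). Its month 15 values lie close together inside the wide month 0 range, and it was higher in 3 of 8 animals (log2 -0.83 ± 0.587 SE). At months 3, 6 and 9 its medians were 176, 155 and 208 CPM, with the highest library, 1292 CPM, in PA8914 at month 3. The like fragment that starts 1 base earlier, tRF-34-EH623K7SIR3DIY, had 52.8 ± 25.2 CPM at month 15 (26.7, 44.6 and 104), against 181 ± 153 CPM at month 0 (13.03, 125 and 441), and was higher in 2 of 8 animals (log2 -1.37 ± 0.576). With 1 base more at its end, on the last base of the acceptor strand, tRF-35-EH623K7SIR3DR2 had 19.7 ± 8.35 CPM at month 15 (3.97, 19.5 and 31.4), against 52.3 ± 30.5 CPM at month 0 (12.1, 59.3 and 90.1), with a log2 of -1.37 ± 0.530. Of the same end but starting in the anticodon stem, tRF-33-QKF1R3WE8RO8DX had 45.2 ± 31.8 CPM at month 15 (16.8, 35.0 and 119.6), against 42.9 ± 9.34 CPM at month 0 (28.8, 44.9 and 56.6), and was higher in 1 of 8 animals. Starting in the anticodon stem with the same end as the most abundant member, tRF-32-QKF1R3WE8RO84 had 77.9 ± 42.9 CPM at month 15 and 122 ± 52.8 CPM at month 0, and tRF-31-M2OSRNLNKSEK0 had 45.75 ± 28.9 and 47.4 ± 31.4 CPM.

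Pooled over libraries, the members that end inside CCA were less abundant than those that end in the acceptor strand. At month 15 members missing 2 bases and members missing 5 had like mean shares of member counts (22.6% and 22.4%). At the head of those missing 2 bases, tRF-35-QKF1R3WE8RO86J had 85.1 ± 88.2 CPM at month 15 (29.5, 49.2 and 289), against 42.7 ± 35.1 CPM at month 0 (16.8, 35.7 and 125), and its groups overlap (log2 0.85 ± 0.428, higher in 5 of 8 animals). Its highest month 15 library was that of PA8872. One base shorter at the 5' end, tRF-34-M2OSRNLNKSEKH9 had 60.6 ± 79.9 CPM at month 15 (6.97, 26.3 and 249), against 15.2 ± 12.3 CPM at month 0 (5.36, 11.6 and 44.3), and was higher in 7 of 8 animals (log2 1.70). Without PA8001 it had 33.7 CPM at month 15 and 11.1 CPM at month 0. Of those missing 1 base, tRF-35-M2OSRNLNKSEK51 led with 19.0 ± 34.4 CPM at month 15 and 2.73 ± 3.37 CPM at month 0, and with 6.90 ± 4.14 CPM at month 15 without PA8001. The most abundant member ending on the discriminator base, tRF-34-QKF1R3WE8RO8IS, had 42.7 ± 22.2 CPM at month 15 and 48.99 ± 34.6 CPM at month 0.

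Of the called members, the 5 with the largest change at month 15 are shown with their last 4 bases in capitals, since they start further along the read than the abundant members do.
tRF-23-R959KUMK9: ggttcgattccccgacgggGAGC
tRF-21-WE8RO86JD: tcgattccccgacggggAGCC
tRF-31-F1R3WE8RO86JD: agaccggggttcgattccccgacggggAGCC
tRF-30-OSRNLNKSEK51: gaccggggttcgattccccgacggggAGCC
tRF-32-623K7SIR3DR2M: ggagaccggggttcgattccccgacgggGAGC
They start at positions 18, 21, 11, 12 and 9, in the order listed. The first had 78.2 ± 155 CPM at month 15 (6.28, 17.2 and 459), against 4.48 ± 3.70 CPM at month 0 (0, 4.04 and 9.70), and was higher in 7 of 8 animals (log2 2.87 ± 0.684). Its month 15 mean rests on PA8001, at 459 CPM, and was 23.9 ± 22.3 CPM without that animal (n = 7). The month 0 library of PA8001, where it had no count, has a floor of 7.82 CPM. The other four had log2 changes of 2.49, 2.44, 2.25 and 2.16. Leaving out each animal in turn gave 2.09 to 3.24 for the first fragment and 1.64 to 2.99 over the other four. Because the 5 were picked by their size in this same contrast, these values describe them and lend the change no support. A fragment that was rare at month 0 could also pass the filter on low counts through its later libraries alone.

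Members lacking 6 or more bases were high in single libraries. tRF-30-M2OSRNLNKSEK, missing 6, had 130.3 ± 195 CPM at month 15 (20.2, 48.5 and 595), against 39.0 ± 58.8 CPM at month 0 (8.03, 17.4 and 184), and 63.9 ± 58.7 CPM at month 15 without PA8001. tRF-32-L85DMKYUYRLH4, with the same end, had medians of 56.6 CPM at month 15 and 45.5 CPM at month 0, with highest libraries of 664 and 623 CPM at these draws. The third of that end, tRF-33-EH623K7SIR3DDY, had medians of 23.6 CPM at month 15 and 23.2 CPM at month 0. Members missing more than 6 bases were rare. tRF-31-L85DMKYUYRLH0, missing 7, averaged 4.54 CPM over the 40 libraries, and tRF-21-R008R959D, missing 14 and ending inside the T stem, 0.956 CPM.

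Month 15 was also set against the other draws, which share its libraries, so that the contrasts are given side by side. Against month 3, 15 tested members were called higher and 1 lower, beside 7.19% and 3.92% of all fragments (11.1% in either direction). Against month 6 the counts were 29 higher and 5 lower, beside 17% and 9.52% (26.6%), and against month 9 they were 23 higher and 8 lower, beside 18.2% and 12.4% (30.6%). Without PA8873 or PA8914 no member was called against month 3, without PA8003 6 and without PA8001 8. Against month 6, 20 calls were made without PA8872, and against month 9, 14 without PA8003. Without the month 15 library of PA8001 there were 7 calls against month 3 and 19 against month 6, and without those of PA8001 and PA8003 there were 0, 4 and 1 against months 3, 6 and 9. The single lower call against month 3 was tRF-34-EH623K7SIR3DIY. All 14 lower calls over the 3 contrasts lacked 3 to 5 bases and started at positions 4 to 6. Among them were tRF-35-EH623K7SIR3DR2 (log2 -1.71 against month 6 and -2.05 against month 9) and tRF-33-L85DMKYUYRLHDY (log2 -1.86 against month 9, lower in 7 of 8 animals). The median of tested members missing 5 bases was -0.98 against month 3, -1.36 against month 6 and -1.64 against month 9. For those missing 2 bases it was 1.604, 1.68 and 1.80.

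Fragments that cover the last base were counted as companions by the same matching, at 18 to 42 nt, and numbered 1038 with 53433 counts. The most abundant were the defining reads and tRF-40-2VR008R959KUMKF6. Fragments of 42 nt held 20.5% of end-covering counts. The read tRF-42-S5QKF1R3WE8RO86J2 had medians of 91.3 CPM at month 15 (33.01 and 253 as lowest and highest) and 33.4 CPM at month 0 (16.5 and 101.96). Of the 25 tested companions, 25 were higher at month 15 than at month 0 (median log2 1.48) and 13 were called, beside 2.21% of all fragments called higher and a median of 0.05. At months 3, 6 and 9 their medians were 0.52, 0.42 and 0.65, and the smallest adjusted p by edgeR were 0.999, 0.303 and 0.582. Of the 5' fragments of the same tRNA, 20 were tested, with a median of 0.14 at month 15 and a smallest adjusted p of 0.151 by edgeR. Of 28 tested CCA fragments of other sequences, 4 were called higher, with a median of 0.92, beside the same 2.21% and 0.05.

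The ratio of end-lacking to end-covering counts differed widely between animals. It ran from 0.873 (PA8835, month 9) to 31.4 (PA8914, month 3). In PA8914 it was 27.1, 31.4, 12.4, 13.8 and 1.72 at months 0, 3, 6, 9 and 15, while in PA8872 it stayed between 2.24 and 5.69. The mean was 2.63 ± 1.55 at month 15 (median 2.04), against 7.96 ± 8.48 at month 0 (median 4.31), lower in 6 of 8 animals, with overlapping ranges. On the log2 scale the paired difference was -1.18 ± 1.75 (SD, n = 8), and -1.57 without PA8001. At months 3, 6 and 9 it was -0.37, -0.51 and -0.48, each lower in 5 of 8 animals and none past the exact test described above. The ratio sets unlike lengths side by side, since members end at 36 nt and companions at 42 nt. It leaves out 13879 counts of longer fragments that lack the end. With those included, end-covering fragments averaged 28.2% ± 7.98 of matched counts at 18 nt or more at month 15. At month 0 they averaged 18.1% ± 10.8 (SD, n = 8 each).

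**Figure D5:**
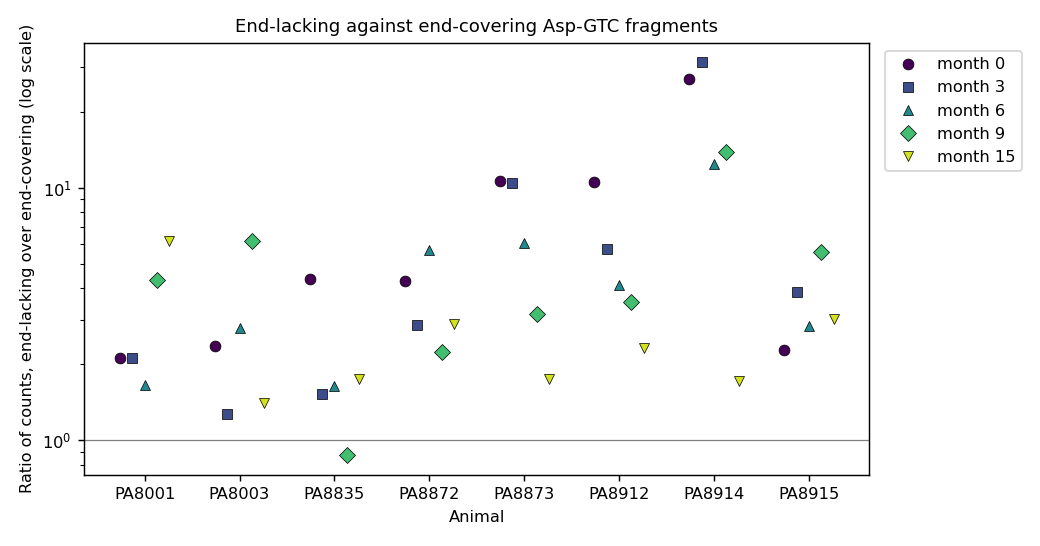
Ratio of member counts to end-covering counts (log scale) in each library, by animal, with months in order and marked by shape; the grey line is 1. PA8914 has 1.72 at month 15 and 27.1 at month 0, and 1 library lies below 1 (PA8835 at month 9, 0.873).

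Among the mismatches 1 stood apart. The substitution G23A in the T loop, counted from the 5' end of the defining read, made up 42.7% of all mismatch counts, in 111 members. The most abundant such member was tRF-33-L85DMKYOYRLHDY, with 5.26 ± 3.62 CPM at month 15 (median 4.80), against 23.3 ± 39.5 CPM at month 0 (median 3.98). The month 0 mean rests on PA8914, at 113.6 CPM, and was 10.4 CPM without that animal, against 4.72 CPM at month 15, while the medians lie in the other order. In longer rows of the table that span both sites the same base (there G56A, counted from the 5' end of the 75-nt row) went with a second difference in the D loop region, G20T. The full-length row and the longest row with both differences are shown with these bases in capitals.
tRF-75-897PVP941QKS3W2VR008R959KUMKF6: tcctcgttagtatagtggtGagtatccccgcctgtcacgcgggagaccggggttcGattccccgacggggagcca
tRF-69-Y3H3RXSMKVNMEH623K76IR3DR2I2: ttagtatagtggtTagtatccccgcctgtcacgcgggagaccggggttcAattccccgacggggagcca
Of rows that cover both positions, 44 with 159 counts had T and A, 143 with 1377 counts had G and G, and 3 with 3 counts had another pairing. The substituted form made up 8.53% of member counts that cover the position and have no other mismatch (lowest library 2.51%, highest 18.6%), and 6.66% of end-covering counts (2.11% and 9.85%). In 5' fragments of the tRNA that cover position 20, the T form made up 23.0% (highest library 44.3%), and its share was above that in members in 39 of 40 libraries. The exception was PA8001 at month 0, with 0 of 37 counts, which allows a share of up to 8.11%. Pooled over libraries, the share in members was 9.98% and 12.2% for 5 and 6 bases missing, and 3.46% to 8.55% for 1 to 4. Within libraries with at least 20 such counts the medians were 7.70% for 5 and 11.9% for 6 bases missing, against 6.73%, 4.25%, 3.58% and 2.51% for 1 to 4. The share for 6 bases missing was above that for 4 in 39 of 40 libraries, and that for 5 above that for 1 in 21 of 38. By first base the pooled share was 19.0% at position 7 and 5.31% to 8.54% at positions 4, 5, 6 and 8, and in 33 of 40 libraries it was higher at position 7 than at each of 4, 5 and 6. Over its 5 draws PA8914 had a median share in members of 10.9% (8.65% to 18.6%), the highest median of the 8 animals, though other animals were higher at months 3, 6 and 15.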

How the data were processed

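Small RNA from serum was sequenced in 40 libraries, and the authors deposited whole-number read counts per distinct fragment sequence and library, with no scaling, and the sequence of each fragment. Adapters were ligated to both ends and molecular identifiers were added at cDNA synthesis, per the labels' protocols; whether counts were collapsed by identifier is not stated, and for the aligner and the tRNA reference the sources used here give no name. The submitters' processing notes list R 4.5.0 with edgeR and limma. Of 60201 rows, 1614 had no fragment ID; each held an unread base, together they had 0.0805% of counts, and they were left out. All sample columns matched a library.

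Members were found by ungapped matching in Python 3.11.15. The test of the counts used edgeR 4.0.16 (R 4.3.3), with filterByExpr at a minimum count of 10, TMM scaling, and 1 robust quasi-likelihood model of the 40 libraries, whose terms were animal (the block) and month. Benjamini-Hochberg adjustment ran over the 2447 fragments tested, with 0.05 as the threshold, two-sided; the biological coefficient of variation was 0.500. The labels name the animal, which pairs the libraries: deviations from month means correlated at a mean of 0.187 within animals and -0.0247 between them, with 53 of 80 within-animal pairs above 0.1. Measures per library were compared with exact sign-flip tests over animals, adjusted over 12 tests. The fit and the sign-flip test were tested on simulated data. Counts simulated for the fit had no animal effect and no outlying library, and that check covered just month 15 against month 0. Named members are the 10 most abundant, the most abundant of each class of bases missing and with 1 mismatch, the 5 with the largest change of those called at month 15 against month 0, and tRF-34-M2OSRNLNKSEKH9; others are said to be chosen after their values were seen. Alternatives were DESeq2 1.42.0, limma-voom (limma 3.58.1), other scalings and filters, no animal block, and libraries or animals left out. The members, lists and tests were chosen with earlier results of these data known. Intervals are Wilson intervals at 95%, and the floor is 3 counts. No genome of the files' build was used, so no coordinates are given.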

Additional observations from a re-analysis of the deposited data

Results flagged for a closer look

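For 5 values, 1 library lay far from the other 7 of its month, among 50 groups of 8 libraries tested, of which chance flags about 1 in 20. PA8001 at month 6 had the shortest members, with a mean of 30.9 nt against a median of 32.8 nt over that month, and the highest share missing 2 bases, 26.8% of member counts. PA8835 at month 9 had a mean length of 31.04 nt against a monthly median of 32.8 nt. In the same library 7.36% of member counts lacked 1 base and 22.3% lacked 2, the highest of that month in both cases. The cause was not tested for either library.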

How the results depend on the processing

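At months 3, 6 and 9 against month 0 no member was called under any alternative run. At month 15 against month 0 the 13 calls became 0 with library totals alone, 5 without a filter, 6 with a minimum count of 30 (fewer fragments tested), 5 by limma-voom, 0 with only these 2 months in the fit, 0 without PA8001 and PA8003 at month 15, 1 without the month 0 library of PA8001 and, chosen after seeing the data, 0 without the month 15 library of PA8001. At month 15 against month 3 the 16 calls became 8 with library totals, 9 without a filter, 8 with a minimum count of 30, 29 by DESeq2, 0 with only 2 months, 0 without both month 15 libraries and 7 without that of PA8001. Against month 6 the 34 calls became 11 with a minimum count of 30, 14 with only 2 months, 4 without both libraries and 19 without that of PA8001; against month 9 the 31 calls became 15, 17 and 1 under the first 3 of these. Leaving out each animal gave 0 to 14, 0 to 17, 20 to 36 and 14 to 35 calls at month 15 against months 0, 3, 6 and 9. Without the replicate block by animal there were 16, 28, 43 and 40 calls; the block moved by over 1.5 times just the count against month 3, and it moved no value or call of the library measures. The log2 change of the summed share turned to 0.15 at month 3 (from -0.01) and 0.0158 at month 6 (from -0.05) with TMM scaling. With each animal left out it ran from -0.14 to 0.13 at month 3, -0.15 to 0.16 at month 6 and -0.0387 to 0.24 at month 9. Likewise the mean number of bases missing ran from -0.0298 to 0.161 at month 9, and the mean length from -0.146 to 0.252, -0.0327 to 0.413 and -0.0837 to 0.269 nt at months 3, 6 and 9, so that these signs rest on single animals. At month 15 against month 0 the median of members missing 3 bases was -0.0201 with a minimum count of 30, and that of members missing 6 was -0.29 without both libraries. The cause of these moves was not tested. Low counts limit the rest: 2982 of the 3047 members were too rare to test.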

Other observations

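A fragment missing 2 bases that had more counts than any member missing 2 lies just outside the length rule. It has 16 nt, starts at position 25 in the T loop, and was named after its values were seen; its last 4 bases are in capitals.
tRF-16-YRLHR0D: ttccccgacgggGAGC
It had 6374 counts, against 4998 for tRF-35-QKF1R3WE8RO86J, the most abundant member missing 2 bases, and it was not an exact part of any row of 37 nt or more of another sequence. Its median was 26.8 CPM of the library total at month 15 (lowest 5.22, highest 90.3), against 30.2 at month 0 (0 and 189), higher in 4 of the 7 animals with counts at both draws. PA8001 had no count at month 0, where its floor of 3 counts is 15.1 CPM, and 5.22 CPM at month 15. At months 3, 6 and 9 the medians were 33.9, 64.4 and 33.3. It was not tested.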
